A study of Drosophila melanogaster with 2 samples.

Results

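The 8 Hox genes of Drosophila melanogaster lie in 2 clusters on chromosome arm 3R, and CG31441-eGFP peaks in those clusters are described here. The genes were taken by symbol: lab, pb, Dfd, Scr and Antp of the Antennapedia complex, and Ubx, abd-A and Abd-B of the bithorax complex. They are 8 of 13968 nuclear protein-coding genes of the annotation. Each complex was given a span from 10 kb before its first to 10 kb after its last listed gene, on assembly dm6. The Antennapedia span runs over chr3R:6651427-7009228 (357.8 kb) and the bithorax span over chr3R:16646623-16982236 (335.6 kb). Of 6501 peaks in the strictest deposited list of the series, 37 had their summit, the position the caller gives as the highest point of a peak, in one of these spans.

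All samples belonged to 1 group of 2 biological replicates: whole embryos aged 0 to 16 hours from flies with a transgene that joins the gene CG31441 to enhanced green fluorescent protein (eGFP). Sonicated chromatin was pulled down through the GFP part of the fusion protein and sequenced (ChIP-seq). The driver of the transgene is not given in the sources used here, and the labels give the same donor line for both replicates. With a single group, the data allow comparison between replicates and between positions on the genome, and not between conditions.

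Hox genes encode homeodomain transcription factors that give each body segment its identity, and their order along the chromosome follows the order of the segments they pattern. The genes are long, and much of the DNA in and between them holds enhancers, boundary elements and response elements for Polycomb and trithorax proteins, which keep each gene silent or active in a given segment. Within 1 embryo a Hox gene is active in some segments and silent in others. A whole-embryo peak sums over all of these cells, so fewer cells with a bound site and less protein per site cannot be told apart.

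The windows around the strongest summits of each complex are printed first, because the results turn on these positions. Each holds 121 bases of the plus strand, centred on the summit and read from the RefSeq genome of dm6. Capitals mark a match, on either strand, to 1 of 6 short motifs that were searched and are spelled out further on.
Ama, chr3R:6763023-6763143: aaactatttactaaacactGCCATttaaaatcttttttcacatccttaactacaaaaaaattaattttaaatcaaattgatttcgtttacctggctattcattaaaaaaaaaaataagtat
Antp intron, chr3R:6903365-6903485: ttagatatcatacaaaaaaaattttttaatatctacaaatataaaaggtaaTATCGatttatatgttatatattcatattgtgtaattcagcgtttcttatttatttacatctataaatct
Antp intron, chr3R:6912628-6912748: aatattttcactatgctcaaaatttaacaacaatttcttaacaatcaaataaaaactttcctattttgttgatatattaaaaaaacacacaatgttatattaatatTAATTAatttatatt
Abd-B intron, chr3R:16958205-16958325: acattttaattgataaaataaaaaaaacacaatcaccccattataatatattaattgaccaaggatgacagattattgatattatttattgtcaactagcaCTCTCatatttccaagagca
bxd, chr3R:16771707-16771827: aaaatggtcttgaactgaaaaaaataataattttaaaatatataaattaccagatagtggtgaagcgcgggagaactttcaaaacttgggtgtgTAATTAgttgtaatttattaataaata
Abd-B intron, chr3R:16969956-16970076: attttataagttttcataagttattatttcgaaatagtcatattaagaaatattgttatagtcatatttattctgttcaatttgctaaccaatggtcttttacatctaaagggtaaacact
All 6 windows are rich in A and T, with G and C making up 15.7 to 25.6% of their bases. The capitals are GCCAT (Pho) in the Ama window, TATCG, the reverse complement of CGATA (BEAF-32), in the Antp window at 6903365, TAATTA (homeodomain) in the other Antp window and in that of bxd, and CTCTC, the reverse complement of GAGAG (GAGA factor), in the Abd-B window at 16958205. The last window holds none.

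The conservative list, which the authors thresholded on the irreproducible discovery rate (IDR, which is low for peaks ranked alike in the lists compared), placed 17 summits in the Antennapedia span and 20 in the bithorax span. The density was 4.75 summits per 100 kb in the Antennapedia span (exact Poisson 95% interval 2.77 to 7.61, counting error only) and 5.96 in the bithorax span (3.64 to 9.20). Over the rest of 3R it was 4.39, and over the rest of the 5 large arms 4.87. Both intervals hold these values, so neither complex stood apart from the arm in density at this count. The backgrounds take in long runs of 100 kb windows with 0 conservative summits, such as the run at the start of 3R. Before thresholding the lists were mixed. The ranked list that holds all conservative peaks had 32.1 summits per 100 kb in the Antennapedia span (26.5 to 38.6) and 30.1 in the bithorax span (24.5 to 36.6). The rest of 3R had 23.3 in that list, below both intervals, and the rest of the large arms had 26.3, inside that of the bithorax span. In the other ranked list of the series the Antennapedia span had 27.9 (22.7 to 34.0), an interval that holds the 23.9 of the rest of 3R, and the bithorax span had 30.1 (24.5 to 36.6), which does not. In the ranked list of replicate 1 the Antennapedia span had 24.9 (19.98 to 30.6) and the bithorax span 25.9 (20.8 to 32.0), and both intervals lie above the 18.6 of the rest of 3R. In that of replicate 2 they had 26.6 (21.5 to 32.5) and 25.3 (20.2 to 31.3), and both intervals hold the 21.6 of the rest of 3R. The rest of 3R covers the same bases in every list, and its density without the empty runs was not computed. An interval above it therefore does not show that a complex was denser than the peak-bearing part of the arm. Median signals in the ranked list that holds all conservative peaks were 34.0 in the Antennapedia span, 42.4 in the bithorax span and 38.5 in the rest of 3R, and no test was made of the difference.

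**Figure D1:**
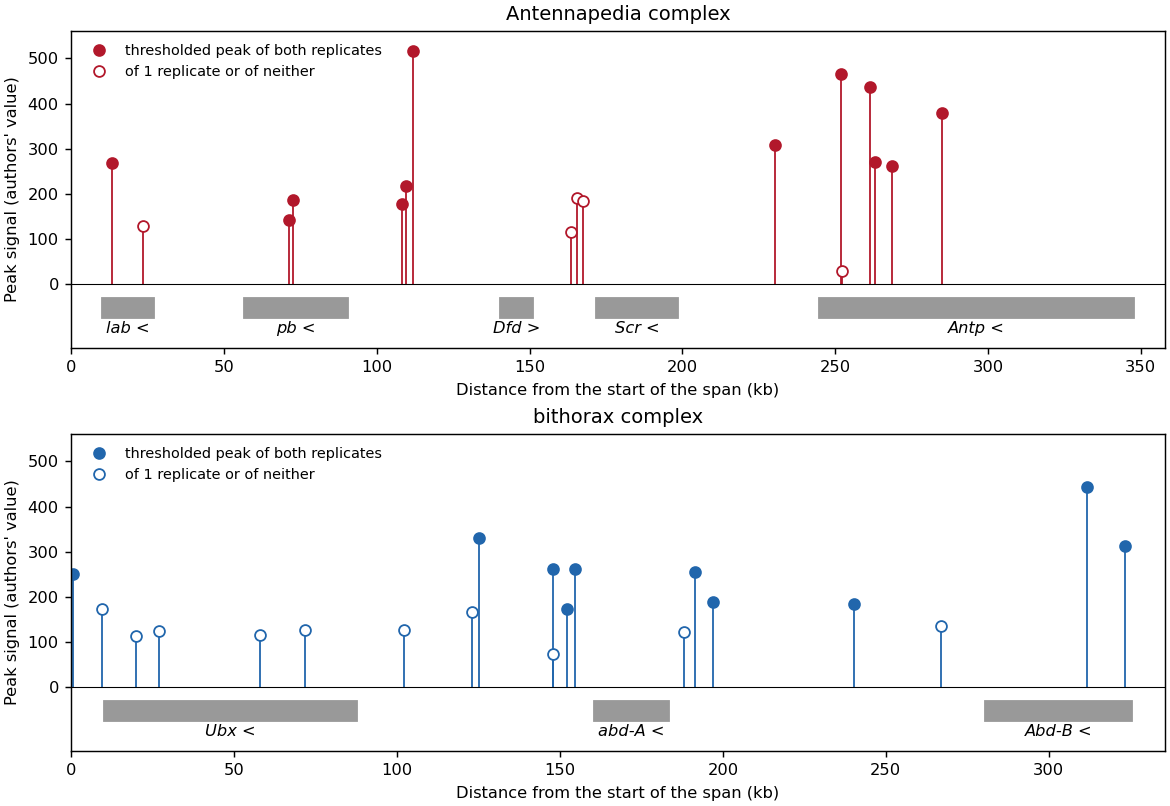
Signal of each conservative summit (authors' peak value, vertical axis) against distance in kb from the start of the span, for the Antennapedia complex (top) and the bithorax complex (bottom). Filled points also fell within thresholded peaks of each replicate, and open points within those of 1 replicate or of none. Grey boxes are Hox genes, with > for the plus and < for the minus strand. Antp carries 6 summits in the part of the gene that lies to the left, and Dfd, Scr and abd-A carry 0.

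In the Antennapedia complex the strongest summit was not at a Hox gene. It lay at 6763083, 321 bp upstream of a transcription start site (TSS) of Ama, a gene for a secreted immunoglobulin-domain protein, inside the annotated Ama gene and also inside the long noncoding RNA gene lncRNA:CR45593. Its signal, a value from the authors' peak caller whose scale is not stated, was 516.4, which ranks 201 among 6476 nuclear peaks. In the replicates' own lists it was 295.0 in replicate 1 and 214.5 in replicate 2 (mean 254.8 ± 56.9, SD, n = 2). Next to it lay 2 weaker summits at bcd, the maternal determinant of the head, which sits in the complex but is not a Hox gene. One was 187 bp upstream of the bcd TSS (signal 177.9) and the other lay between bcd and Ama (217.3).

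Antp (FBgn0260642, chr3R:6896253-6999228, minus strand), which specifies thoracic segments, carried more summits than any other Hox gene, 6, and is also the longest, at 103.0 kb. Per length it had 5.83 per 100 kb, against 11.7 at lab, 5.84 at pb, 5.14 at Ubx and 4.44 at Abd-B. Their signals ranged from 29.0 to 465.5 with a median of 325.1. The strongest, at 6903425, had 262.5 in replicate 1 and 196.3 in replicate 2 (mean 229.4 ± 46.8, SD, n = 2). The next, at 6912688, had a signal of 437.0, with 294.4 in replicate 1 and 149.2 in replicate 2 (mean 221.8 ± 102.7, SD, n = 2). The others had 379.6, 270.6 and 262.6, and the weakest, 29.0, shared its interval with the strongest. All but that weakest summit were also called in the thresholded lists of each replicate. Every Antp summit was intronic and lay on the side of the gene's 3' end. The TSS at the far end of the gene, at 6999228, had no conservative summit within 62.9 kb, and the one at 6958370 had none within 22.1 kb. The gene CG46458 is annotated over the same introns, so these summits count for it as well.

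The other genes of the Antennapedia complex carried 0 to 2 summits each, and are shorter. The gene lab (FBgn0002522, chr3R:6661427-6678590, minus strand), which acts in the head and midgut, had 2 in 17.2 kb. The one at 6664647 had a signal of 267.6, with 186.7 in replicate 1 and 92.0 in replicate 2 (mean 139.4 ± 67.0, SD, n = 2), and the other had 129.3. The mouthpart gene pb (FBgn0051481, chr3R:6707800-6742063, minus strand) had 2 in 34.3 kb, with signals of 141.6 and 187.7, and both were in the thresholded lists of both replicates. Dfd (FBgn0000439, chr3R:6791836-6802428, plus strand), a gene of the jaw segments, had 0 in 10.6 kb. Scr (FBgn0003339, chr3R:6823120-6849981, minus strand), a gene of the labial and anterior thoracic segments, had 0 in 26.9 kb. Among gaps with a summit of the span on both sides, the one around Scr, 63.0 kb, was the longest, and the one around Dfd, 51.9 kb, was the next. A longer stretch without a summit, 72.9 kb, ran from the last summit, in Antp, to the end of the span.

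Between Dfd and Scr lay 3 summits with signals of 115.6, 191.2 and 184.2, which is 14.5 per 100 kb over 20.7 kb. The lncRNA gene CR42651, which holds mir-10 in the annotation, has its TSS 372 bp from the second of these. None of the 3 was in the thresholded lists of both replicates: the first and the second were in that of replicate 1 alone, the other in that of replicate 2 alone. A single summit, with a signal of 308.1, lay between Scr and Antp, on the Antp side of the segmentation gene ftz and inside lncRNA:CR44931. In the replicates' lists it had 162.0 in replicate 1 and 140.3 in replicate 2. The 29.2 kb between lab and pb, which hold a group of cuticle protein genes, had 0 summits.

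In the bithorax complex the strongest summit lay in Abd-B, the next in lncRNA:bxd, and the Ubx summits were among the weaker ones. Abd-B (FBgn0000015, chr3R:16927212-16972236, minus strand), the gene of the posterior abdomen, carried 2 in 45025 bp. The stronger, at 16958265, had a signal of 442.8, with 295.1 in replicate 1 and 151.5 in replicate 2 (mean 223.3 ± 101.5, SD, n = 2), and lay 2016 bp from the nearest of the gene's 6 TSSs. The other, at 16970016, had 312.8, with 177.5 in replicate 1 and 133.2 in replicate 2 (mean 155.3 ± 31.3, SD, n = 2), and lay 1442 bp from a TSS. Both were intronic and both were found in each replicate.

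Ubx (FBgn0003944, chr3R:16656623-16734426, minus strand), which acts in the posterior thorax and anterior abdomen, carried 4 summits in 77.8 kb, all intronic and all weak. Their signals were 113.4, 125.6, 116.3 and 127.4, each below the list median of 180.4. None lay in a thresholded peak of replicate 1, and 1 of 4, at 16704487, lay in one of replicate 2 (signal 56.8). In the ranked lists, which hold peaks before thresholding, all 4 were present in both replicates, with 58.0 to 72.6 in replicate 1 (list median 33.2) and 49.5 to 56.8 in replicate 2 (list median 20.5). The Ubx summits thus had ranked peaks in each replicate, mostly ones that did not pass the threshold there. The conservative list was itself made from the alignments of both replicates, so this presence is not separate support for them. They rank from 4919 to 5414 among the 6476 nuclear peaks. Summits of like signal lay elsewhere in the complexes, such as 129.3 at lab and 126.2 in lncRNA:bxd. The abdominal gene abd-A (FBgn0000014, chr3R:16807214-16830049, minus strand) had 0 summits in 22.8 kb.

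The stretches between the bithorax Hox genes, known for their regulatory domains, are long. Their summits are therefore set beside the 5.96 per 100 kb of the whole bithorax span. Between Ubx and abd-A there were 7 in 72.8 kb, or 9.62 per 100 kb. Of these, 3 lay in lncRNA:bxd, with signals of 126.2, 167.0 and 330.8, and the last had 178.6 in replicate 1 and 141.1 in replicate 2 (mean 159.8 ± 26.5, SD, n = 2). The other 4 had 261.9, 74.1, 173.4 and 261.9. The first and second of these share an interval, and the last lay 36 bp from the TSS of lncRNA:TS16.

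Between abd-A and Abd-B there were 5 summits in 97.2 kb, at 5.15 per 100 kb, with signals of 123.0, 256.3, 189.0, 184.3 and 136.7. All 5 lay in lncRNA:iab8, whose transcript crosses the abdominal regulatory domains, and 4 also lay in introns of MSAmiP, a protein-coding gene annotated over it. The microRNA genes mir-iab-4 and mir-iab-8 of that interval had 0 summits within 500 bp. At the outer edge of the Ubx side, 2 summits lay at promoters of neighbours. The one 192 bp from CG10324 and 409 bp from CCT3, a chaperonin subunit gene, had 250.4, and the one 440 bp from modSP, a serine protease gene of immune signalling, had 173.7.

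Hox genes differed in where the nearest summit lay, but none had a conservative summit at its promoter. Counting summits at most 500 bp from any annotated TSS, 0 of 8 Hox genes had a conservative summit (exact 95% interval 0 to 36.9%), against 18.2% of all protein-coding genes. That interval holds the background share, so 8 genes are too few to tell the Hox genes from the rest here. The thresholded lists of single replicates likewise gave 0 of 8, against 17.3% of all protein-coding genes in replicate 1 and 18.4% in replicate 2. The closest summits were those of lab at 1193 bp and Abd-B at 1442 bp, followed by Antp at 3479 bp and abd-A at 4795 bp. For Ubx the distance was 14.4 kb, for pb 17.6 kb, for Dfd 23.2 kb and for Scr 29.8 kb. Over the 37 summits, the median distance to a Hox TSS was 21.0 kb, and 30 of 37 were over 10 kb away.

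**Figure D2:**
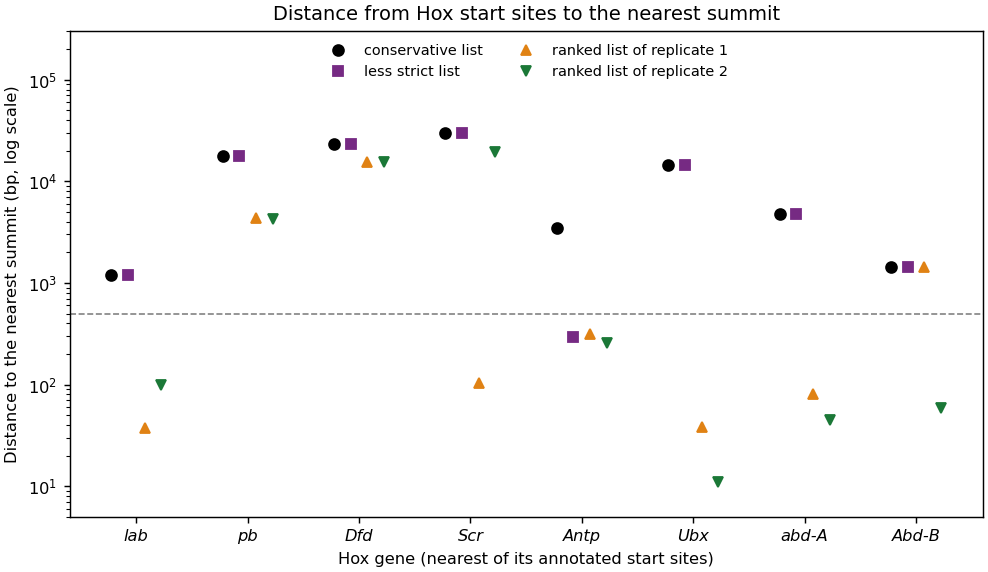
Distance in bp (log scale) from each Hox gene's nearest annotated start site to the nearest summit, in the conservative list, the less strict list and the ranked lists of replicates 1 and 2. The dashed line marks 500 bp. All conservative points lie above the line, from 1193 bp at lab to 29757 bp at Scr, while pb and Dfd lie above it in every list shown.

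Weaker peaks were present at some Hox promoters in lists with a lower threshold. At Antp the less strict list of the series held a summit at 6933137, 297 bp upstream of the internal TSS at 6932840, with a signal of 127.0. That makes 1 of 8 Hox genes, against 21.1% of all protein-coding genes in that list. Its global IDR was 0.00367 in the ranked list that holds all peaks of the less strict list, and 0.0166 in the ranked list that holds all conservative peaks. In the ranked lists of single replicates the Antp peak had 82.8 in replicate 1 and 33.5 in replicate 2, so it was higher in replicate 1.

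The ranked list that holds all conservative peaks had a promoter summit at 4 of 8 Hox genes, against 35.7% of all protein-coding genes. Its signals, beside a list median of 36.5, were 76.8 at lab (global IDR 0.0266), 127.0 at Antp, 46.0 at Ubx (0.115) and 54.2 at abd-A (0.633).

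In the ranked lists of single replicates, promoter summits were present at 5 of 8 Hox genes in replicate 1 (35.1% of all protein-coding genes) and 5 of 8 in replicate 2 (43.1%). The genes shared by both were lab, Antp, Ubx and abd-A. The highest such signal at lab was 39.6 in replicate 1 and 43.1 in replicate 2, where the list medians were 33.2 and 20.5. At Ubx it was 27.0 in replicate 1 and 31.1 in replicate 2, and at abd-A 32.0 in replicate 1 and 27.4 in replicate 2. Scr had one in replicate 1 alone (9.89) and Abd-B in replicate 2 alone (19.2). Apart from Antp and, in replicate 2, lab, Ubx and abd-A, these values lie near or below the list median, and pb and Dfd had none in either replicate.

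Inside gene bodies the comparison depends on gene length. A conservative summit lay between start and end of 5 of 8 Hox genes, against 12.7% of all protein-coding genes and 50.2% of the 1873 genes that are at least as long as Dfd, the shortest Hox gene. Summed over the 8 genes there were 16 summits in 337.5 kb, or 4.74 per 100 kb, and 5.90 per 100 kb in the rest of the spans. Other genes of that length on the large arms had 4.47 per 100 kb when summed. Beside genes of like length, the share and the density at Hox genes were near the background. The less strict list also had a body summit at 5 of 8 Hox genes, against 14% of all protein-coding genes and 53.6% of the long ones. In the thresholded list of replicate 1 it was 4 of 8, without Ubx, against 11% and 43.9%, and in that of replicate 2 it was 5 of 8, against 12.4% and 47.9%.

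The position of summits in the complexes was set beside that in the rest of the series. A summit was called promoter when it lay within 500 bp of a protein-coding TSS, and otherwise by the feature of protein-coding genes it lay in. Noncoding genes were not used for the classes. Intergenic summits therefore include those in lncRNA:bxd and lncRNA:CR44931 and the one at the TSS of lncRNA:TS16. Of the 37, 4 were at promoters (10.8%, exact 95% interval 3.03 to 25.4%), namely at bcd, Ama, CG10324 with CCT3, and modSP. In the rest of the series 36.6% were (35.4 to 37.8%). Promoter windows make up 6.61% of the bases of the spans and 11.5% of those of the large arms, so the promoter share of summits was 1.64 times that of bases in the complexes and 3.19 times in the rest. Introns held 20 of 37 summits (54.1%, 36.9 to 70.5%) and 51.6% of the bases of the spans, against 39.8% of summits in the rest of the series and 39.3% of the bases of the large arms. Intergenic sequence held 13 of 37 (35.1%, 20.2 to 52.5%) and 33.4% of bases, against 22.2% of summits and 30.1% of bases. Coding exons and untranslated regions outside promoter windows held 0 of 37, which allows up to 9.49% for each, and between 0.217 and 0.839% of summits each in the rest of the series. No test was made, since neighbouring summits are not independent. The 2 intervals on the promoter share cover counting error only, and do not allow for the smaller share of promoter bases in the spans.

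**Figure D3:**
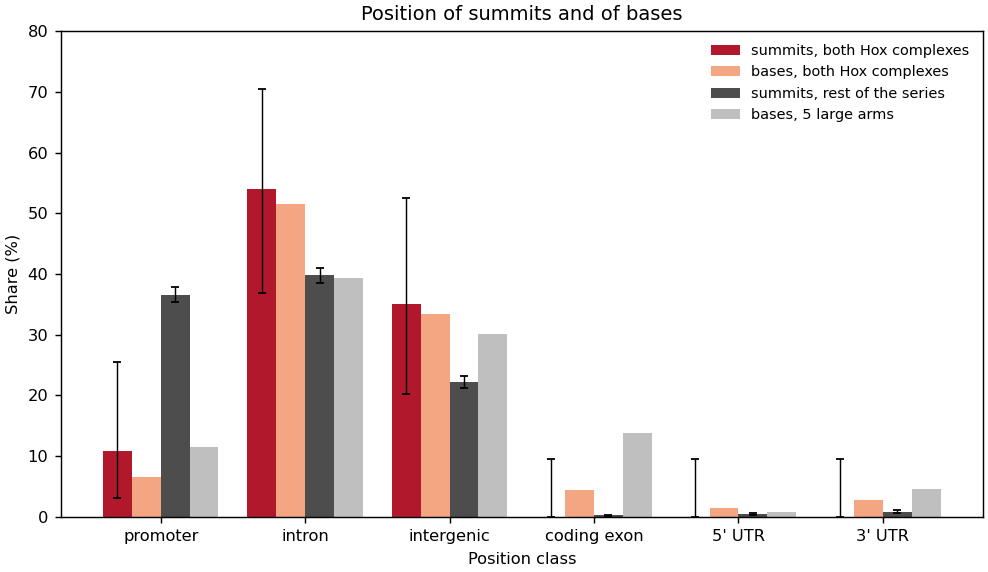
Share in percent (vertical axis) of conservative summits and of bases in each position class, for both Hox complexes and for the rest of the series. Classes refer to protein-coding genes, so lncRNA genes outside them count as intergenic. Bars on the summit shares are exact 95% binomial intervals for counting error. The promoter share of summits was 10.8% in the Hox complexes and 36.6% in the rest of the series.

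Fixed windows place the complexes within the range of the genome. Of 1328 windows of 100 kb laid end to end on the 5 large arms, the median held 4 summits, the richest 32, and 20.1% held 0. The windows with 0 include long runs, such as the run at the start of 3R. The 3 windows with their midpoint in the Antennapedia span held 5, 4 and 6 summits, and the 4 windows of the bithorax span held 4, 8, 5 and 4. The richest of these, with 8, covered the 5' side of Ubx and most of the sequence between Ubx and abd-A, and 19.9% of all windows held more. Sequence just outside was emptier on some sides: the nearest summit before the Antennapedia span was 146.8 kb from its edge and the nearest after it 58.0 kb. For the bithorax span these distances were 122.3 and 4.45 kb.

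**Figure D4:**
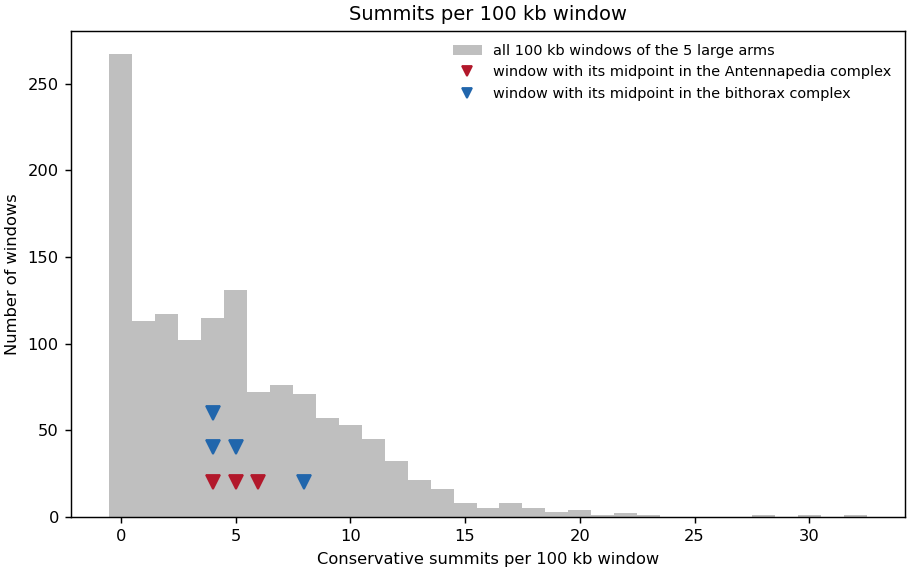
Number of 100 kb windows (vertical axis) by their count of conservative summits, over the 5 large arms. Triangles mark the 3 windows of the Antennapedia complex and the 4 of the bithorax complex on the horizontal axis, and their height only keeps them apart. All 7 lie between 4 and 8 summits.

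Most summits of the complexes were also called in the replicates one by one. Of the 37, 22 (59.5%) fell within thresholded peaks of each replicate, 3 within those of replicate 1 alone, 7 within those of replicate 2 alone and 5 within those of neither. In the rest of the series 54.6% fell within peaks of each. Of the 22, 12 were in the Antennapedia span, out of 17, and 10 in the bithorax span, out of 20. At all 22 the value of replicate 1 exceeded that of replicate 2, by a median ratio of 1.40 (range 1.06 to 2.51). The median ratio over the rest of the series was 1.32, with 3058 of 3514 above 1. The scale of the signal may differ between the replicates' lists, which were made separately. In the ranked lists all 37 were present in each replicate, and the value was higher in replicate 1 at 35 of 37. Each value is that of the strongest ranked peak over the summit base. The 37 come from a list made from the alignments of both replicates, so their presence in both ranked lists is not separate support.

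**Figure D5:**
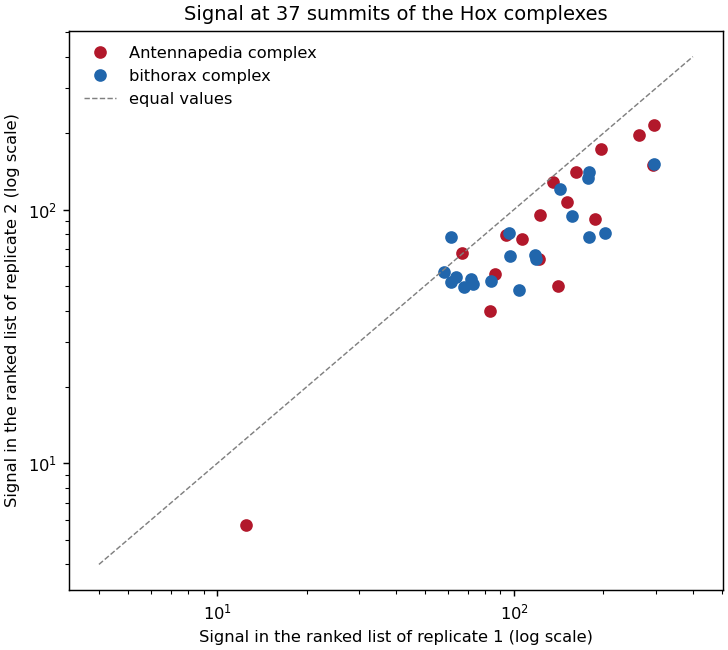
Signal at the 37 summits of the Hox complexes in the ranked list of replicate 1 (horizontal) and of replicate 2 (vertical), both on log scales. The dashed line marks equal values, and 35 of 37 points lie below it, on the side of replicate 1. Values ran from 12.5 to 295.1 in replicate 1 and from 5.72 to 214.5 in replicate 2.

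The median signal was 187.7 at the 37 summits and 180.4 over the rest of the large arms, and 21 of 37 lay above the median of all nuclear peaks. In the Antennapedia span the median was 217.3, and in the bithorax span it was 173.6. The 10% of strongest peaks of the series included 4 of the 37, those at Ama, Abd-B and the 2 strongest at Antp. Strong summits lay at Ama, Antp and Abd-B. Those at Ubx were weak, as were the weakest at Antp and others in both spans.

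The summits lay in sequence richer in A and T than the complexes as a whole. Over the summit and 50 bases on either side, the median share of G and C was 28.7% at the 37 summits and 29.7% at summits in the rest of the series, while all bases of the spans had 41.6%. The summit base was soft-masked, that is, marked as repeat or low-complexity sequence, at 11 of 37 (29.7%) and at 27.1% in the rest of the series. Of all bases of the spans 16.9% were masked.

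Motifs of factors known to act in Hox complexes were counted on both strands, from 150 bases before to 150 bases after each summit. GAGAG (GAGA factor) was found at 12 of 37 (32.4%), against 32.4% of all 6476 nuclear summits and 32.9% of windows of that length laid end to end over the spans. GCCAT, the core of the Pho site, was found at 13 (35.1%, against 35.8% and 53.6%), and TGAGTG (Zeste) at 6 (16.2%, against 14.9% and 15.1%). TAATTA, a homeodomain core, was found at 11 (29.7%, against 25.1% and 20.8%), and AGNNGGCGC, part of the CTCF site, at 2 (5.41%, against 2.996% and 2.43%), both in the bithorax span. CGATA (BEAF-32) was found at 7 (18.9%, against 33.8% and 29.5%), with 6 of 17 in the Antennapedia span and 1 of 20 in the bithorax span. No motif is contained in another. A match to such short words describes the letters alone, and was not tested as a site.

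Other genes linked to the Hox genes were looked up in the same way, for a conservative summit within 500 bp of a TSS (18.2% of all protein-coding genes) and in the gene body (12.7% of all, 50.2% of the long ones). Of 4 further homeobox genes of the Antennapedia complex, bcd alone had one (177.9), and zen, zen2 and ftz had none; in the gene body 0 of 4 had one. Of 6 cofactors and collaborators of Hox proteins, 0 had one, and 2 had a summit in the gene body. They were disco-r, with 1 (318.0), and hth, which carries the Hox cofactor Exd into the nucleus, with 13 in its 132.0 kb and a highest signal of 397.7. Of 10 embryonic Hox targets, fkh, a salivary gland regulator that Scr activates, had one (181.6, called in the thresholded list of replicate 2 alone), and 5 of 10 had a summit in the gene body. Of 25 other homeobox genes, tin (497.6), caup (347.2) and so (269.9) had one, which is 12%, and 6 of 25 had a summit in the gene body (24%).

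Of 13 Polycomb and trithorax group genes, whose products hold Hox genes silent or active, 5 had a promoter summit (38.5%, against 18.2% of all protein-coding genes). They were brm (830.0), E(z), the histone methyltransferase of Polycomb repression (545.6), Trl (275.1), Su(z)12 (236.6), with ph-d the weakest, and all 5 were called in the thresholded list of each replicate. The values at brm and E(z) are above that of every summit in the Hox complexes, where the highest was 516.4. In the gene body 8 of 13 had a summit, against 12.7% of all protein-coding genes and 50.2% of the long ones. The body count overlaps the promoter count. At E(z), Su(z)12 and ph-d, all shorter than Dfd, the highest body signal is that of the promoter summit. The genes of these lists differ in length, and the lists were chosen with earlier results of these data known. No interval or test was made on them, so 5 of 13 does not show a share above that of all protein-coding genes.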

How the data were processed

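CG31441-eGFP was mapped by ChIP-seq in 2 replicates of 1 group, whose numbers come from the labels. The 8 deposited narrowPeak lists are on dm6. The authors made 4 from the alignments of both replicates and 4 from single replicates, per the deposited readme files. Which aligner and peak caller were used is not given in the sources used here. Signal is the authors' deposited peak value, on a scale not stated. The score is the authors' deposited scaled IDR, and the −log10 q-value column deposited by the authors was not used. In the 2 ranked lists of the series, 16 columns for single inputs were not used. Read counts and depth are unknown.

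Of 6501 conservative peaks, the 6476 on the nuclear chromosome arms were used for medians and motifs. Summits were taken as column 2 plus column 10 and treated as 1-based, since in the files some offsets equal the peak width and none is 0. RefSeq's dm6 genome gave the sequence, and the genes are those of Ensembl release 115 (BDGP 6.54), with 19630 TSSs of protein-coding genes. Classes were assigned over protein-coding genes alone, with promoters (500 bp) first, then exons by part, introns and intergenic sequence. Chance tests were not made, because peaks and genes are not replicates of a condition. Intervals are exact Poisson or Clopper-Pearson and cover counting error only. As a check of the counting code on simulated data, 200 of 200 planted promoter summits and 60 of 60 planted span summits were recovered. They were planted inside the same limits that the counts use, so this tests neither peak detection nor the reading of summit positions.

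All 8 Hox genes are named, and the 3 strongest summits per complex were described in full, the others by value. Of other gene lists, members with a promoter summit are named, at most 4 by signal, and any beyond that were named after their values were seen. Members and gene lists were chosen with earlier results of these data known. Alternatives were the less strict list, each replicate's list, a signal cut at the list median, merged peaks, flanks of 0 and 50 kb and promoter windows of 250 and 1000 bp. Python 3.11.15, numpy 2.4.6, scipy 1.17.1 and matplotlib 3.10.9 were used.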

Additional observations from a re-analysis of the deposited data

How the results depend on the processing

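Of 56 alternative values, 42 stayed within 1.5 times the count or within the spread between replicates. Under the less strict list the density was 6.71 per 100 kb in the Antennapedia span and 7.75 in the bithorax span, and 1 Hox gene, Antp, had a promoter summit in place of 0. With only peaks at or above the list median, the bithorax span held 9 summits, the densities were 3.35 in the Antennapedia span and 2.68 in the bithorax span, and the median signal was 262.6, as fewer peaks enter by construction. With flanks of 50 kb the densities were 3.88 and 5.05, because the added sequence held few summits. Leaving out a replicate gave 17 to 20 summits (4.75 to 5.59 per 100 kb) in the Antennapedia span and 14 to 16 (4.17 to 4.77) in the bithorax span, 0 to 0 Hox genes with a promoter summit, 4 to 5 with one in the gene body, an intronic share of 50 to 60.6% and a median signal of 80.6 to 135.4. The signal of single-replicate lists may be on another scale. Merging overlapping peaks moved none of these results beyond those limits. A flank of 0 kb moved none of the summit counts, densities, median signal and intronic share, and promoter windows of 250 or 1000 bp moved neither the count of Hox genes with a promoter summit nor the intronic share, the results they were run on. Depth is unknown, so a missing peak at a Hox promoter does not show missing protein. No paired analysis was possible because there is 1 group.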
